A study of Mus musculus with 137 samples.

Results

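The trypsinogens are a family of 8 genes measured in the mouse duodenum: *Gm2663*, *Gm5771*, *Prss1*, *Prss2*, *Prss3*, *Try4*, *Try5* and *Try10*. They were taken as every probe whose gene symbol was one of these names, which gave 8 of 21450 genes and 12 of 30146 probes, with a pair of probes each for *Gm5771*, *Prss1*, *Try4* and *Try5*. The genes were selected on their counts in these same libraries, so their levels, and the counts of members called below, are a description, and no p is given for them.

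Trypsinogens are the inactive precursors of trypsin, the serine protease that starts protein digestion in the small intestine. They are made by the acinar cells of the exocrine pancreas together with the other digestive enzymes, stored in zymogen granules and released through the pancreatic duct into the duodenum. There enteropeptidase, a protease of the duodenal brush border, cuts them to trypsin, which then activates the other pancreatic zymogens. The duodenal epithelium itself is not known as a main source of trypsinogen, and pancreas lies against the duodenal wall.

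The mice were female wildtype B6C3F1, a hybrid of C57BL/6 and C3H, and drank water with 0, 0.1, 1.4, 5, 20, 60 or 180 ppm Cr(VI), given as sodium dichromate dihydrate, for 7 or 90 days. Ages are not in the labels. Crypts, which hold the stem and dividing cells, and villi, which hold the absorbing cells, were scraped from fixed and embedded duodenal sections, one compartment having been removed from each of 2 adjacent sections of a mouse. The 137 libraries (71 crypt and 66 villus) came from 71 mice in 28 groups, of which 23 had 5 libraries, 4 had 4 and 1 had 6. The group of 6 was 7-day crypt at 0.1 ppm, with mice 90 and 126 to 130. Mouse 90 was kept in its labelled group although its number is out of series. The paper excluded some samples for low depth or gene diversity. All 137 libraries were used here, and whether any was excluded there is not in the labels. Total counts ran from 1463938 to 7199801 per library, with a median of 3592983. Among the untreated mice at 7 days, libraries of 2 mice stood apart: the villus library of mouse 48 had a summed crypt-marker level of 3355 CPM (counts scaled to the effective library size) and the crypt library of mouse 49 had 509, where the other untreated 7-day libraries had 2000 to 6050 in crypt and 431 to 1565 in villus. For the comparisons of 180 ppm with untreated mice at 7 days, most calls, the acinar list medians and the crypt ratios are therefore also given without these 2 mice. The other 7-day values are from all libraries.

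All 8 genes lie in one stretch of chromosome 6 (GRCm38.p6), where the mouse trypsinogen cluster is interleaved with the T cell receptor beta genes. *Gm2663* lies at chr6:40995822-40999479 on the reverse strand, close to its near-copy *1810009J06Rik* at chr6:40964772-40968427. The others follow at chr6:41302272-41305533 (*Try4*), chr6:41311232-41314710 (*Try5*), chr6:41354105-41357944 (*Try10*), chr6:41373759-41377613 (*Prss3*), chr6:41392356-41397256 (*Gm5771*), chr6:41458930-41463786 (*Prss1*) and chr6:41521776-41525079 (*Prss2*). Each has at most 5 exons per transcript in the GENCODE M21 annotation, except *Try5* with at most 6, and the probes are directed at the spliced transcripts.

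The probes read 50 bases, and most transcripts of the family are close copies of each other. In GENCODE M21 the *Gm2663* and *1810009J06Rik* transcripts were identical in 99.42% of 862 aligned positions, with 5 mismatches, and 83.52% of the 50-base windows of *Gm2663* also occurred in *1810009J06Rik*, the one other gene to share any. *Gm5771* and *Prss1* were identical in 97.43% of 779 aligned positions, with 17 mismatches. *Gm2663* in turn was only 69.35% identical to *Gm5771* and 69.67% identical to *Prss1*, and shared no 50-base window with either. The share of windows also found in another gene was 55.41% for *Gm5771*, 54.89% for *Prss1*, 66.11% for *Prss3*, 65.56% for *Try4*, 53.86% for *Try5*, 40.81% for *Try10* and 7.83% for *Prss2*. Counts of these probes can therefore be split or shared between genes, and the gene behind a probe is taken here from its name alone. The positions of the probes within the transcripts are not analysed here.

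The sequence before the start of *Gm2663*, *Gm5771* and *Prss1* is shown because probes of these 3 genes moved together with dose, and that of *Try4* because its probe is used below as the reference. The 250 bases before each RefSeq start are given 5′ to 3′ on the gene's strand. Capitals mark CACCTG on either strand, the form of E-box read by the acinar factor PTF1A, and TATAAA on the gene's strand.
Gm2663 (chr6:40999480-40999729, reverse strand): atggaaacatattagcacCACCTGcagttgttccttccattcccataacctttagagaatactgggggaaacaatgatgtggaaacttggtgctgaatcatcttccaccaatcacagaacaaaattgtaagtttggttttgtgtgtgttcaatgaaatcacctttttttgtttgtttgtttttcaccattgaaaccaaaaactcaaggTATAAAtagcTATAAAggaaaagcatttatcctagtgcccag
Gm5771 (chr6:41392106-41392355, forward strand): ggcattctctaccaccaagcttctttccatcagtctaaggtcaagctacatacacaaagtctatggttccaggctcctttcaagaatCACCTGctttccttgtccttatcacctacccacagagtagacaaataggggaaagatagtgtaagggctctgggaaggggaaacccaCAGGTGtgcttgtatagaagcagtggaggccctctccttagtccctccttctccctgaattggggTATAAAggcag
Prss1 (chr6:41458680-41458929, forward strand): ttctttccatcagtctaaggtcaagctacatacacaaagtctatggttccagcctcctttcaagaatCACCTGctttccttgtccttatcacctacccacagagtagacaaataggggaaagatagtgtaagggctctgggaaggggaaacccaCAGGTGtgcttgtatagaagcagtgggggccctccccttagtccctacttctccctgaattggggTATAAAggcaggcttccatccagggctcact
Try4 (chr6:41302022-41302271, forward strand): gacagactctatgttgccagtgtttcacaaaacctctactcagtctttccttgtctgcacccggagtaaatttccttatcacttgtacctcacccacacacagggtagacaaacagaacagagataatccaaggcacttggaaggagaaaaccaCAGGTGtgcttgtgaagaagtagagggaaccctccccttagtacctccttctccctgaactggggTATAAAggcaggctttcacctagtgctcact
The *Gm5771* and *Prss1* sequences aligned with an offset and were identical in 226 of 230 positions. *Prss1* and *Try4* were identical in 176 of 251 aligned positions, and the *Gm2663* sequence gave no alignment of 150 or more positions with *Gm5771*, *Prss1* or *Try4*. CACCTG, counted on both strands, occurred once before *Gm2663* and *Try4* and 2 times before *Gm5771* and *Prss1*, and in 17.1% of 27025 promoters of this length. TATAAA on the gene's strand occurred before all 4 and in 8.122% of those promoters. Of the 8 members, 6 had a promoter sequence in the RefSeq table used, all but *Try5* and *Try10*.

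Summed over the 12 probes, the trypsinogens ranged between libraries from almost none to a few percent of all counts. The sum ran from 0.4015 to 49807 CPM with a median of 2131, which was from 4.65e-05% to 3.76% of all counts of a library. It was under 50 CPM in 27 of 137 libraries, of which the highest had 39.3 CPM, and the next library had 105 CPM. It was over 1000 CPM in 89 libraries and over 10000 CPM in 16. The libraries under 50 CPM were 5 of 68 at 7 days and 22 of 69 at 90 days, and each dose held at least 1 of them. In bulk samples such as these, fewer cells of a type and less RNA per cell cannot be told apart.

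**Figure D1:**
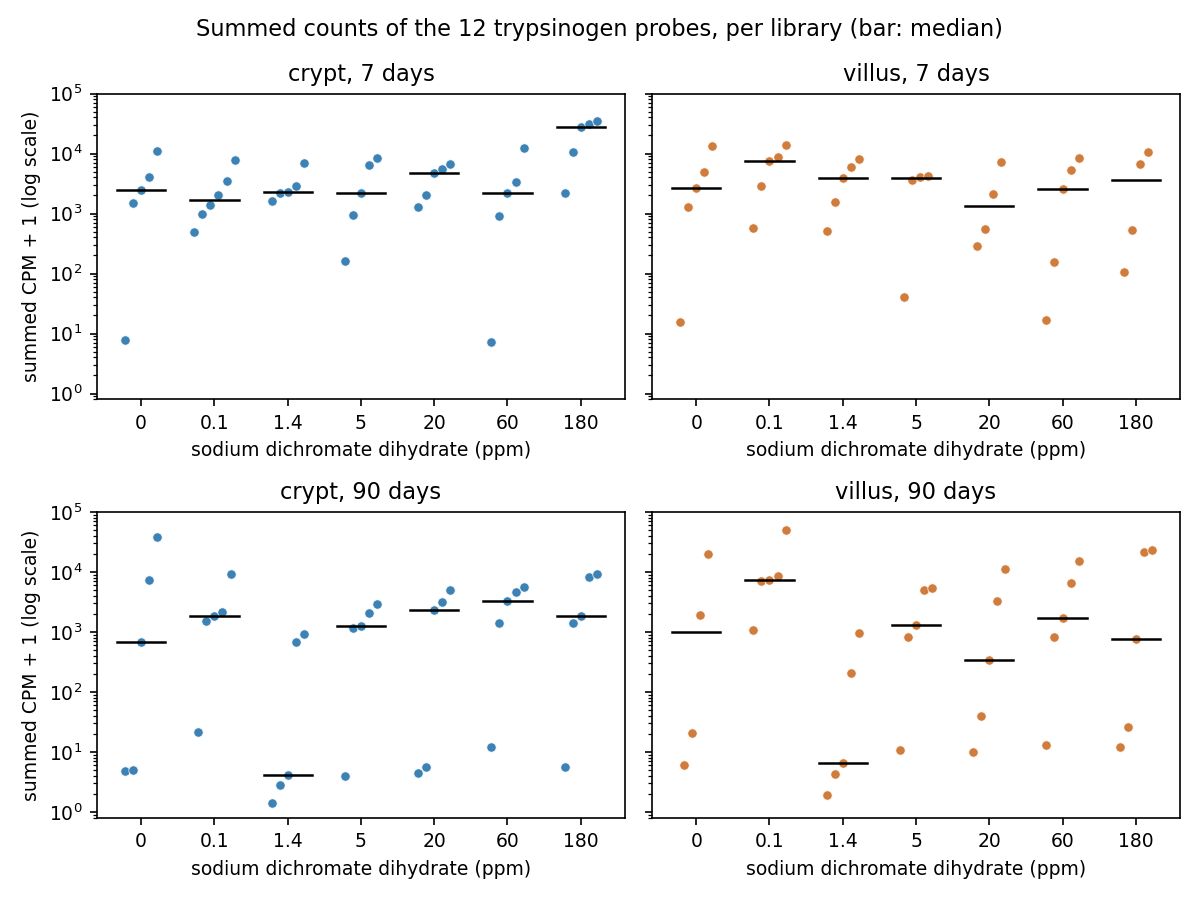
Summed CPM of the 12 trypsinogen probes (plus 1, log scale) in each library, by dose in ppm Cr(VI), for crypt and villus at 7 and 90 days. The axis names the salt, sodium dichromate dihydrate, but its values are ppm of Cr(VI). Points are libraries and bars are group medians. Libraries under 50 CPM stand apart from the rest at most doses, and the 7-day crypt group at 180 ppm has the highest median, 27612 CPM.

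*Try4* gave the most counts. Its probe 30887 held 30.7% and its probe 75906 held 16.5% of all member counts. *Prss1* probe 71011 followed with 14.7%, *Try5* with 10.6% (probe 80234) and 9.88% (probe 29086), *Prss3* with 7.14%, *Prss2* with 4.53% and *Try10* with 1.43%. *Prss1* probe 32233 held 1.90%, *Gm5771* probe 32251 held 1.68%, *Gm2663* 0.910% and *Gm5771* probe 31364 0.0127%. Different probes capture their target with different efficiency, so these shares describe probes and do not rank genes by amount.

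Low libraries of crypt and villus mostly came from the same mice. Among the 66 mice with both libraries, 12 were under 50 CPM in crypt and in villus, 51 were over it in both, 1 was under it in crypt alone and 2 in villus alone. The 12 low mice were 3, 6 and 50 (untreated), 161, 162 and 165 (1.4 ppm), 241 (5 ppm), 325 and 327 (20 ppm), 403 and 447 (60 ppm), and 488 (180 ppm). Of the 51 mice, 29 had crypt and villus sums within 4-fold of each other. The sum was higher in crypt in 27 mice and higher in villus in 39.

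**Figure D2:**
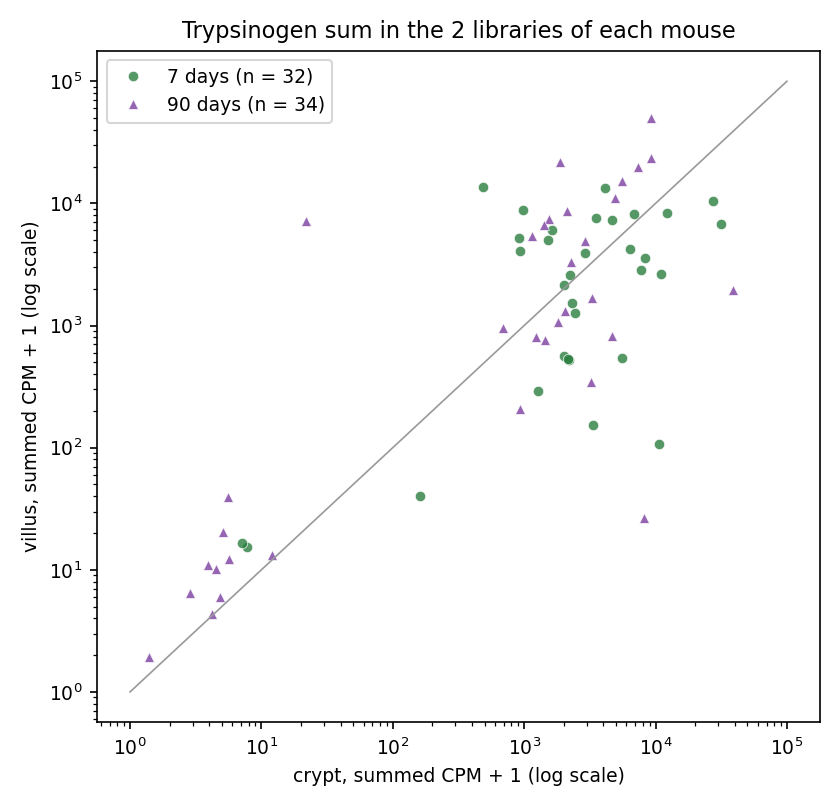
Summed trypsinogen CPM (plus 1) in the crypt library against the villus library of the same mouse, on log axes, for 32 mice at 7 days (circles) and 34 at 90 days (triangles). The line marks equal sums. The 12 mice under 50 CPM in both libraries form a group of their own at the lower left.

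The genes whose level was most like the trypsinogen sum over the 137 libraries were other pancreatic enzymes. Among the 10 with the highest Spearman rho were *Gm10334*, a near-copy of *Prss3*, the chymotrypsinogens *Ctrb1* and *Ctrc*, the elastases *Cela3b*, *Cela2a* and *Cela1*, the trypsinogen-like *2210010C04Rik*, and the carboxypeptidases *Cpa1* and *Cpb1*. Over those named, rho ran from 0.962 (*Cpb1*) to 0.982 (*Gm10334*), Pearson r from 0.955 to 0.9845, and rho within each compartment and time from 0.918 to 0.983. They were ranked among all probes that passed the count filter, with 1 probe per gene. All of them share libraries, depth and tissue with the trypsinogens, and the values are a description.

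The 12 probes did not all follow one another. Against the sum of the other 11 probes over 137 libraries, rho was between 0.912 (*Try10*) and 0.995 (*Prss1* probe 71011) for 8 probes: the pair for *Try4*, the pair for *Try5*, *Try10*, *Prss3*, *Prss2* and *Prss1* probe 71011. It was 0.807 for *Prss1* probe 32233, 0.635 for *Gm5771* probe 32251, 0.388 for *Gm2663* and 0.289 for *Gm5771* probe 31364.

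*Gm2663*, *Gm5771* probe 32251 and *Prss1* probe 32233 departed from the rest in the mice given 180 ppm for 7 days. *Gm2663* had 0 counts in all 5 untreated crypt libraries. In the 5 crypt libraries at 180 ppm it had 5471, 5981, 3295, 591 and 2560 counts (mice 526 to 530), or 1385, 2331, 1040, 145 and 587 CPM. Every exposed library was high and every untreated library was at 0, and the mean of 1098 ± 833 CPM (SD, n = 5) was at least 1374-fold higher than a floor of 3 counts per untreated library.

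*Gm5771* probe 32251 had 18, 29, 26, 11 and 0 counts in untreated crypt (mice 46 to 50) and 11237, 7767, 6603, 793 and 4500 at 180 ppm. The means were 4.58 ± 2.99 and 1836 ± 1208 CPM (SD, n = 5 each), a ratio of 401. *Prss1* probe 32233 had 24, 42, 95, 35 and 0 counts in untreated crypt and 13727, 9217, 6426, 626 and 4413 at 180 ppm. Its means were 11.3 ± 10.9 and 2052 ± 1507 CPM (SD, n = 5 each), a ratio of 181. With mice 48 and 49 left out, the untreated means were 3.75 and 5.22 CPM (n = 3), and the ratios 490 and 393. For both probes the groups did not overlap, and mouse 529 was the lowest exposed library, as for *Gm2663*. Mouse 529 also had the lowest trypsinogen sum of the 5, 2167 CPM against 10637 to 34332 in the other 4.

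In villus at 7 days the same 3 probes were high at lower levels. *Gm2663* had 0, 0, 7, 0 and 0 counts in untreated villus (mice 46 to 50) and 938, 979, 129 and 55 counts at 180 ppm (mice 526, 528, 529 and 530), without overlap. Its mean was 161 ± 149 CPM (SD, n = 4) against 0.377 ± 0.844 (n = 5). *Gm5771* probe 32251 had 0, 0, 30, 74 and 0 counts untreated and 2528, 1890, 122 and 29 exposed. *Prss1* probe 32233 had 69, 9, 12, 154 and 0 untreated and 2288, 1505, 54 and 0 exposed. The groups overlapped through mouse 530 for *Gm5771* and through mice 529 and 530 for *Prss1*. Trypsinogen sums of these mice were 533 (529) and 105 CPM (530), the lowest of the 4.

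Of the 12 member probes, 3 were called in crypt at 7 days (edgeR, adjusted p under 0.1), these same 3 and all higher, where 3.11% of all probes tested were called, and 3 of 12 had every exposed library above every untreated one, where 1.12% of all probes did. In villus at 7 days the same 3 were called, where 4.73% of all probes were. *Prss1* probe 32233 was not called there in 6 of the 9 fits without 1 library, those without untreated mouse 46, 47, 48 or 50 or exposed mouse 526 or 528, nor by DESeq2. Of the 12, 1 did not overlap in villus, *Gm2663*, where 1.60% of all probes did not. The members were chosen on these contrasts and nothing is read from these counts. The other 9 had fitted log2 folds between 0.81 (*Prss2*) and 7.34 (*Gm5771* probe 31364) in crypt, and between -1.37 (*Prss2*) and 4.14 (*Gm5771* probe 31364) in villus. *Gm5771* probe 31364 had a mean of 0 CPM in both untreated groups, and of 5.45 CPM in crypt and 0.554 CPM in villus at 180 ppm. Its fitted folds are therefore not measured sizes. Leaving that probe aside, the highest were 2.58 in crypt and 0.53 in villus, both of *Prss3*. Without mice 48 and 49, the same 3 probes were called in both compartments.

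At 60 ppm the 3 probes were far below their levels at 180 ppm. In 7-day crypt, *Gm2663* had a median of 7.28 CPM at 60 ppm, with counts of 98, 0, 1, 37 and 65 in mice 446 to 450. In 7-day villus it had 49, 0, 17, 13 and 9 counts in the same mice. Mouse 447, at 0 in both, had trypsinogen sums of 6.10 and 15.6 CPM. *Gm5771* probe 32251 had medians of 24.4 CPM in crypt and 27.1 CPM in villus at 60 ppm, and *Prss1* probe 32233 had 21.8 and 24.6 CPM. At 0.1 to 20 ppm *Gm2663* had at most 20 counts in any 7-day library.

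At 90 days *Gm2663* stayed under 50 CPM in every library. At 180 ppm *Gm2663* had 13, 78, 23, 0 and 5 counts in crypt (mice 483, 484, 485, 488 and 490) and 0, 204, 19, 0 and 1 in villus. Mouse 484 was the highest in both compartments, with 17.9 and 47.5 CPM. *Gm2663* was the 1 of 12 member probes called in villus at 90 days, where 14.0% of all probes were called, and 0 of 12 were called in crypt, where 3.79% were. The villus call was lost in fits without untreated mouse 3, 5 or 6 or without exposed mouse 484. *Gm5771* probe 32251 had at most 15.5 CPM and *Prss1* probe 32233 at most 28.6 CPM in 90-day crypt at 180 ppm, each overlapping the untreated libraries.

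**Figure D3:**
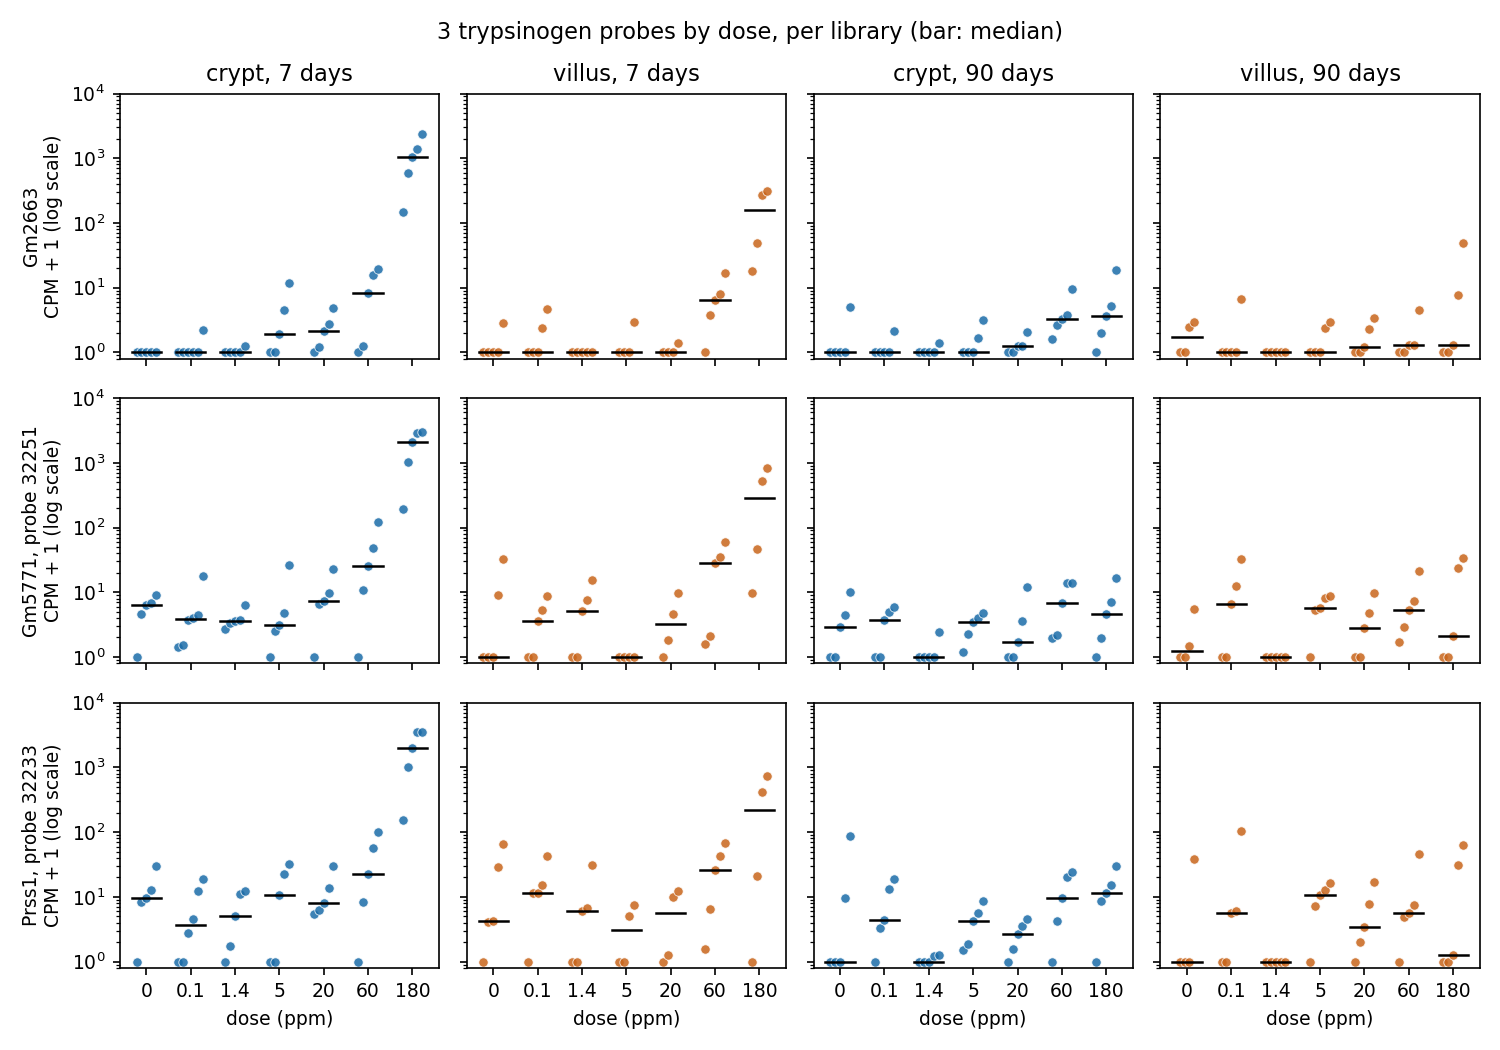
CPM plus 1 (log scale) of *Gm2663*, *Gm5771* probe 32251 and *Prss1* probe 32233 in each library, by dose in ppm, in 4 columns for crypt and villus at 7 and 90 days. Points are libraries and bars are medians. The highest values in each row are 7-day crypt libraries at 180 ppm, and at 90 days the highest *Gm2663* value is 47.5 CPM.

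Since the whole family varied with the mouse, each probe was set against *Try4* probe 30887 within the same library, in the 109 libraries with 100 or more counts of it. In 7-day crypt, *Gm5771* probe 32251 had a median of 0.435 counts per 100 *Try4* counts in untreated mice. Its medians were between 0.212 and 0.455 at the doses from 0.1 to 20 ppm, then 3.31 at 60 ppm, and 45.6 at the highest dose. *Prss1* probe 32233 had 0.848 untreated, 0.906 at 20 ppm, 2.68 at 60 ppm and 44.7 at 180 ppm. The untreated medians without mice 48 and 49 were 0.887 for *Gm5771* probe 32251 and 1.22 for *Prss1* probe 32233, over 2 libraries. *Gm2663* was at a median of 0 untreated, 0.0920 at 20 ppm, 0.755 at 60 ppm and 25.9 at 180 ppm. At 60 ppm the single libraries ran from 0.0758 to 1.37 for *Gm2663* and overlapped those at 5 ppm, of which the highest, mouse 286, had 3.87. At 180 ppm they ran from 14.5 to 36.4, above every library at a lower dose.

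Over both compartments, *Gm2663* was between 12.4 and 40.2 per 100 *Try4* counts in the 8 libraries at 180 ppm and 7 days, and at most 6.04 in the other 101. *Gm5771* probe 32251 was between 29.0 and 49.9 against at most 11.5, and *Prss1* probe 32233 between 16.8 and 61.0 against at most 12.1. Mouse 529, the lowest of the 5 in crypt, was not low on this scale: its crypt library had 32.9 *Gm2663* counts per 100 *Try4* counts. Villus of mouse 530 had 19 *Try4* counts and is not among the 8. The untreated crypt library of mouse 5 at 90 days had 40728 *Try4* counts and 15 *Gm2663* counts. Its sum over acinar secreted proteins was 349480 CPM, against 6034 to 91733 CPM in 7-day crypt at 180 ppm.

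**Figure D4:**
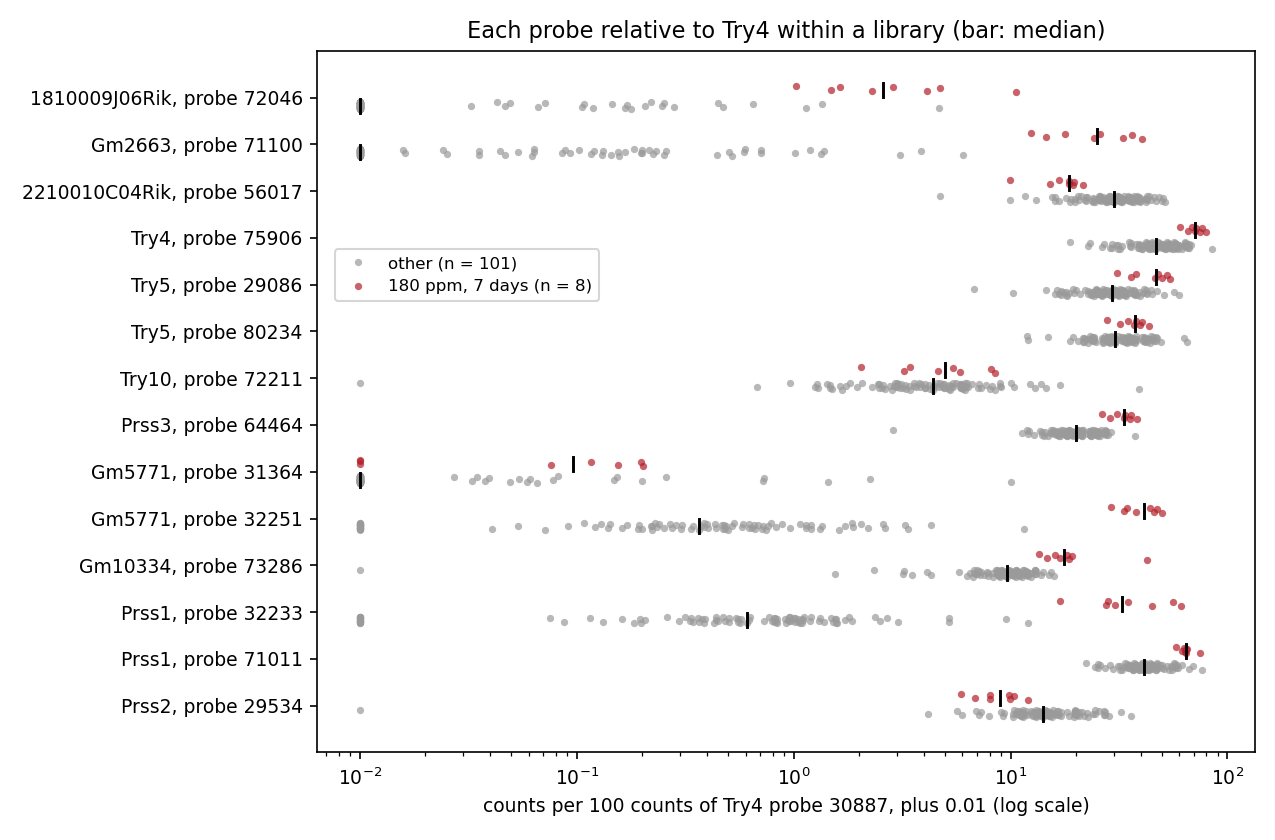
Counts of each probe per 100 counts of *Try4* probe 30887 in the same library (plus 0.01, log scale), for 11 member probes and 3 related genes in the order of the chromosome. Red points are the 8 libraries at 180 ppm and 7 days, grey points the other 101, and bars are medians. *Gm2663*, *Gm5771* probe 32251 and *Prss1* probe 32233 show no overlap between red and grey.

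The other member probes changed less on this scale. The median per 100 *Try4* counts was 64.1 at 180 ppm and 7 days against 41.3 in the other libraries for *Prss1* probe 71011, 33.5 against 20.0 for *Prss3*, 71.0 against 46.6 for *Try4* probe 75906, 47.0 against 29.4 for *Try5* probe 29086 and 37.4 against 30.3 for *Try5* probe 80234. *Try10* had 5.00 against 4.38. *Prss2* lay on the other side, with 8.93 against 14.1. The ranges overlapped for each of these 7 probes, and these shifts were described after the values were seen.

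Probes of one gene did not always read alike. The counts of *Prss1* probe 32233 were 0.261 to 0.935 times those of *Prss1* probe 71011 in the 8 libraries at 180 ppm and 7 days with 100 or more counts of the latter, and at most 0.219 times in 99 others, with a median of 0.0141. *Gm5771* probe 31364 had at most 0.00423 times the counts of probe 32251 in those 8 libraries, and its highest count anywhere was 47, in villus of mouse 368 at 20 ppm and 7 days. By contrast *Gm5771* probe 32251 and *Prss1* probe 32233, named for different genes, had a ratio of 0.819 to 1.27 in 7 libraries at 180 ppm and 7 days. Among 14 other libraries with 100 or more counts of *Prss1* probe 32233 the ratio ran from 0 to 1.22. The *Try4* pair had a median ratio of 0.484 over 109 libraries and the *Try5* pair 1.08 over 104.

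The 4 other trypsinogen-family genes on the panel were not used to choose the members, but they were listed with earlier results of these data known. *1810009J06Rik*, the near-copy of *Gm2663*, had 7, 0, 7, 0 and 0 counts in untreated 7-day crypt (mice 46 to 50) and 513, 675, 370, 85 and 282 at 180 ppm (mice 526 to 530), without overlap. It rose by 7.12 ± 1.82 on the log2 scale (SE, edgeR quasi-likelihood test, adjusted p = 0.0117), and was higher in 5 of 5 exposed libraries. Without mice 48 and 49 the log2 difference was 7.50 and no longer passed (edgeR adjusted p = 0.129). DESeq2 gave *1810009J06Rik* no adjusted p in 7-day crypt. In villus it had 0, 0, 10, 0 and 0 counts untreated and 112, 56, 34 and 0 exposed, a log2 difference of 4.74 ± 1.68 that did not pass (edgeR adjusted p = 0.113). It was 8.94 without these 2 mice and passed (edgeR adjusted p = 0.0624). It also passed without the villus library of mouse 48 or of exposed mouse 530 alone and with the default quasi-likelihood form (edgeR adjusted p = 0.00273). In the other 10 alternatives it did not pass in villus, among them the DESeq2 Wald test (adjusted p = 0.462). It had 5.72 to 26.4 counts per 100 *Gm2663* counts in the 9 libraries with 100 or more of the latter. Because the transcripts differ at 5 aligned positions, this is not a measurement independent of *Gm2663*. *Gm10334*, the near-copy of *Prss3*, had a crypt log2 difference of 2.57 ± 1.42 (edgeR adjusted p = 0.363) and *2210010C04Rik* of 1.08 ± 1.56 (adjusted p = 0.937), while *Gm4744*, annotated as a pseudogene in RefSeq, was at a mean of 0 CPM exposed and 0.718 CPM untreated (adjusted p = 0.246). So with all libraries 1 of 4 genes rose in 7-day crypt, the near-copy of *Gm2663*, where 3.11% of all probes were called. In 7-day villus, 90-day crypt and 90-day villus 0 of 4 passed, where 4.73%, 3.79% and 14.0% of all probes were called.

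Genes for other acinar secreted proteins, the marker list for pancreas in a section, did not pass in these comparisons. At 180 ppm against untreated, edgeR called 0 of the 28 probes (22 genes) that passed the count filter, of 29 probes (23 genes) on the panel, in either compartment and at both times, and 0 had an unadjusted p under 0.05. DESeq2 also called 0 in each. Their median log2 difference was 0.91 in 7-day crypt, -1.67 in 90-day crypt, -1.50 in 7-day villus and 0.77 in 90-day villus, beside -0.04, 0.00, -0.07 and 0.12 over all probes tested. Single libraries decided these medians. In 90-day crypt it was 0.72 without untreated mouse 5, and in 90-day villus it was 3.84 without untreated mouse 7 and -0.44 without exposed mouse 485. Without mice 48 and 49 it was 2.50 in 7-day crypt and -0.69 in 7-day villus, and 0 of 28 were called in each. The list ran from 0.53 (*Amy2a4*, an amylase) to 1.96 (*Pla2g1b*, pancreatic phospholipase A2) in 7-day crypt. Summed over the list, 7-day crypt ran from 83.1 to 85878 CPM untreated and from 6034 to 91733 CPM at 180 ppm (medians 17866 and 50083), and 7-day villus from 78.7 to 76246 CPM and from 199 to 19487 CPM. *Cela3a* was the 1 probe of the 29 at 0 in all untreated 7-day libraries. The part of pancreatic tissue in the trypsinogen levels was not tested. Per 100 counts of the acinar list, the 8 libraries at 180 ppm and 7 days lay above the other 101 for each of the 3 probes: at least 1.16 against at most 0.528 for *Gm2663*, 2.32 against 1.21 for *Gm5771* probe 32251, and 1.16 against 1.06 for *Prss1* probe 32233. The 3 probes were picked on this contrast and this reference was added after the data were seen. These ranges are therefore a description only.

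Few other pancreatic markers were called. The share of all probes called was 3.11% in 7-day crypt, 4.73% in 7-day villus, 3.79% in 90-day crypt and 14.0% in 90-day villus. In 7-day crypt, 0 of 5 probes for the acinar transcription factors *Ptf1a*, *Rbpjl*, *Bhlha15* and *Nr5a2* were called. Of 8 islet hormone probes 1 was, *Sst*, which fell by 1.27 ± 0.38 on the log2 scale (edgeR adjusted p = 0.0464), a call lost in 5 of 10 fits without 1 library and without mice 48 and 49 (edgeR adjusted p = 0.342). *Sst* encodes somatostatin, which enteroendocrine cells of the gut also make. Both *Ins1* probes were at 0 in the untreated and the 180 ppm crypt libraries at 7 days, and every other islet probe had counts in some library of each group. The 8 probes had log2 differences from -1.27 to 1.57. Their sum ran from 42.1 to 127 CPM untreated and from 32.0 to 69.9 CPM at 180 ppm. In 7-day villus 1 of 5 acinar factor probes fell, *Rbpjl*, which had a mean of 0 CPM exposed and 10.2 CPM untreated (edgeR adjusted p = 0.0612), and 0 of 8 islet probes passed. The *Rbpjl* call was lost in 5 of 9 fits without 1 library and without mice 48 and 49 (edgeR adjusted p = 0.157). In 90-day crypt *Sst* again fell, by 1.40 ± 0.38 (edgeR adjusted p = 0.0174), and 0 acinar factor probes passed. In 90-day villus 2 of 5 acinar factor probes rose: *Bhlha15*, with a mean of 4.05 CPM exposed and 0 untreated (edgeR adjusted p = 0.0326), and 1 of the *Nr5a2* probes, by 1.36 ± 0.54 (edgeR adjusted p = 0.0964). Both genes can also be expressed in the small intestine. In untreated 90-day crypt the factor probes summed to between 60.2 and 102 CPM, while the acinar secreted proteins ran from 77.1 to 349480 CPM. The *Nr5a2* call was lost in 7 of 9 fits without 1 library and with DESeq2 (adjusted p = 0.125), and the *Bhlha15* call with the default quasi-likelihood form of edgeR (adjusted p = 0.117).

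Markers of other tissues that a scraped section can hold were also counted. Of all probes tested, 3.11% were called in 7-day crypt, 4.73% in 7-day villus, 3.79% in 90-day crypt and 14.0% in 90-day villus. With all libraries, 2 of 9 smooth muscle probes fell in 7-day villus and 5 in 90-day villus, by up to 2.68 on the log2 scale (a *Cnn1* probe, edgeR adjusted p = 0.000496), and 0 passed in crypt. Of the 5, the calls of 2 *Cnn1* probes held in each of 9 fits without 1 library, and the other 3 were lost in 2 to 6 of them. Of 6 adipocyte probes 1 fell in 7-day crypt (*Cidec*), and of 6 mesothelium probes 1 fell in 7-day villus (*Msln*). Of 5 villus probes 2 fell in 7-day crypt and 1 in each other comparison at 180 ppm, and of 5 crypt probes 1 fell in each villus comparison. When mice 48 and 49 were left out, 0 smooth muscle, 0 mesothelium and 0 crypt probes passed in 7-day villus, and 0 adipocyte and 1 villus probe passed in 7-day crypt. The Brunner gland mucin *Muc6*, the 1 probe of its list, was called lower in villus at both times, each time through 1 untreated library. It had 399 counts in mouse 46 and 0 in the other 4 at 7 days, and 119 counts in mouse 5 and 0 in the other 3 at 90 days, and neither call held without that library. Their part in the trypsinogen levels was not tested.

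Genes that activate, inhibit or sense trypsin, listed together with the protease meprin, were measured in the same libraries, with 14 probes of 11 genes. At 180 ppm 1 fell and 0 rose in 7-day crypt, 3 fell and 0 rose in 90-day crypt, 2 fell and 0 rose in 7-day villus, and 2 fell and 1 rose in 90-day villus, where 3.11%, 3.79%, 4.73% and 14.0% of all probes were called. The 7-day counts were the same without mice 48 and 49. Their median log2 differences were -0.72, -0.94, -0.67 and -0.28. *Spink1*, the secreted trypsin inhibitor, went from a mean of 197 to 37.4 CPM in 7-day villus and fell by 2.40 ± 0.49 on the log2 scale (edgeR adjusted p = 0.000604). It fell by 1.46 ± 0.45 in 90-day villus (adjusted p = 0.0257, edgeR) and by 1.59 ± 0.44 in 90-day crypt (adjusted p = 0.0231, edgeR). In 7-day crypt its difference was -0.69 ± 0.43 and was not called. *Mep1b*, a subunit of the brush-border protease meprin, fell in all 4 comparisons, by 1.63 ± 0.26 in 7-day crypt (edgeR adjusted p = 2.88e-06) and by at least 0.82 in the others. *Tmprss15*, which encodes enteropeptidase, had a mean of 0 CPM in exposed and 2.26 CPM in untreated 90-day crypt (edgeR adjusted p = 0.0375). *Ctsb*, the lysosomal protease cathepsin B, which can cut trypsinogen, rose by 1.48 ± 0.42 in 90-day villus (edgeR adjusted p = 0.0104). Single libraries decided some of these calls. The *Spink1* call in 90-day crypt was lost without untreated mouse 5 (log2 difference -0.86) or exposed mouse 484 (-1.34), the *Ctsb* call without exposed mouse 485 (0.96), and the *Tmprss15* call without exposed mouse 484 or 490 and with the default quasi-likelihood form (edgeR adjusted p = 0.107), while DESeq2 gave *Tmprss15* no adjusted p. The *Mep1b* call in 90-day crypt was lost without any one of untreated mice 5, 6 and 8 and exposed mice 484, 485 and 488. The differences between compartments or times were not tested.

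The last comparison set untreated crypt against untreated villus. At 7 days, 0 of 12 member probes were called between untreated crypt and villus, where 0.152% of all probes were. At 90 days 1 of 12 was, *Gm5771* probe 31364, where 10.1% of all probes were, and that call was lost without any one of 8 of the 9 libraries. That probe had 0 counts in the 5 crypt libraries and 0 to 12 in the 4 villus libraries. With the mouse as a block, the 90-day comparison called 1 of 12 members, *Try10*, which was higher in crypt. It also called 5 of 27 acinar secreted protein probes, all higher in crypt, against 0 of 28 without the block. Over all probes, the block fit called 1898 of 24398. The trypsinogen sum was 38699 CPM in crypt and 1954 CPM in villus of mouse 5. In mouse 7 it went the other way, with 7368 CPM in crypt and 19974 CPM in villus. The untreated villus group at 90 days had 4 libraries, 2 of them under 50 CPM of trypsinogens.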

How the data were processed

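Counts were obtained by TempO-Seq, a targeted assay in which pairs of detector oligos are ligated on fixed RNA and sequenced. The deposited table holds raw counts per probe, which the authors made by demultiplexing with bcl2fastq 2.17.1.14 and aligning reads to the probe sequences with Bowtie. The genome build is not given in the sources used here. All 137 columns were mapped to samples by name, and 0 columns were left unmapped. Total counts per library were 1463938 to 7199801, and 12957 to 23112 probes were detected. Floors cover counting error only.

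CPM used TMM effective library sizes. One edgeR 4.0.16 quasi-likelihood fit (R 4.3.3) with a trended dispersion covered all 28 groups, on the 26365 probes left by filterByExpr, and probes with a Benjamini-Hochberg adjusted p under 0.1 were called. Comparisons were 180 ppm against time-matched untreated mice, within a compartment, and untreated crypt against villus. Levels below 3 counts per library were treated as a floor. Likeness used log2(CPM + 1). In data simulated for 180 ppm against untreated crypt at 7 days, on 15086 probes, 5 of 67 probes changed 2-fold, 62 of 67 changed 4-fold and 66 of 66 changed 8-fold were called, all in the right direction, and 5% of calls were false. Every simulated probe had the same dispersion, and only probes with higher counts were changed. These shares therefore do not describe probes that vary as widely between mice as the pancreatic ones.

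The members and lists were chosen with earlier results of these data known, so members carry no p. All members and probes were named, then the 10 genes most like their sum (1 of which is not reported here), and the highest and lowest gene of each list or every gene of a list of 5 or fewer. The called genes *Spink1*, *Mep1b*, *Tmprss15*, *Ctsb*, *Sst*, *Cnn1*, *Cidec* and *Msln*, the limit of 50 CPM and the libraries singled out were chosen after their values were seen. Marker lists were acinar secreted proteins, acinar transcription factors, islet hormones, Brunner gland, smooth muscle, mesothelium, adipocyte, crypt and villus.

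Crypt and villus libraries of one number came from the same mouse. Over 19020 probes, deviations from the group means had a median r of 0.0823 in 66 pairs of the same mouse and -0.0215 in 269 pairs of different mice. Each number otherwise marks 1 mouse, so the 180 ppm comparisons are not paired. Alternatives were DESeq2 1.42.0 size factors, no filter, the default quasi-likelihood form, the DESeq2 Wald test, the mouse as a block, leaving out each library, raw library sizes, a pseudocount of 0.1 CPM and, added after the data were seen, leaving out mice 48 and 49 and the acinar list as the reference. Fits without 1 library used the libraries of the 8 groups compared, with the probes and dispersion trend of the full fit. Transcripts, strands and exon counts came from GENCODE M21, and promoters and gene positions from RefSeq on GRCm38.p6.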

Additional observations from a re-analysis of the deposited data

Results flagged for a closer look

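In 5 of the 28 groups the library with the lowest summed trypsinogen level lay far from the others of its group on a log scale, by Dixon's criterion. Chance flags about 5% of groups where values are normally spread, which the low and high libraries here may not be. In 7-day crypt, mouse 50 (untreated) had 6.83 CPM. In 7-day villus at 5 ppm, mouse 288 had 39.3 CPM. In 90-day crypt, mouse 241 at 5 ppm had 2.91 CPM, mouse 403 at 60 ppm had 11.0 CPM and mouse 488 at 180 ppm had 4.65 CPM. Mice 50, 241, 403 and 488 were also under 50 CPM in villus, whereas mouse 288 was over that limit in crypt.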

How the results depend on the processing

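In 7-day crypt 3 to 4 member probes were called under each alternative, and in 7-day villus 2 to 3. Over all probes, calls in 7-day crypt ran from 319 of 26365 (without mice 48 and 49) to 1404 of 10799 (DESeq2 Wald test). In 7-day villus they ran from 835 of 26365 (without exposed mouse 528) to 2294 of 18938 (DESeq2 Wald test). The members were chosen with these data known, so nothing is read from the counts of members. In 90-day crypt the count of members called was 0, and 1 without untreated mouse 5. In 90-day villus it was 0 with the DESeq2 Wald test and 0 to 3 in fits without 1 library (3 without untreated mouse 7). For untreated crypt against villus at 90 days it was 0 with the default quasi-likelihood form and with DESeq2, and 0 to 2 without 1 library. Called acinar secreted protein probes in 90-day villus were 1 with the default form and 0 to 4 without 1 library, the 4 arising without untreated mouse 7. In untreated crypt against villus at 90 days they were 0 to 3 without 1 library (3 without villus of mouse 7) and 5 with the mouse as a replicate block. The block called 1 member there and 0 at 7 days, of 1898 and 513 probes called. The *Muc6* difference in 90-day villus was -6.75 on the log2 scale and ran from -8.80 to 2.09 without 1 library, turning positive without untreated mouse 5. The cause of these shifts was not tested. The DESeq2 Wald test called 1404 probes in 7-day crypt, 1686 in 90-day crypt, 2294 in 7-day villus and 727 for untreated crypt against villus at 7 days, on its own filter. The default form called 1710 in 90-day crypt and 168 for untreated crypt against villus at 7 days, where DESeq2 size factors gave 75. Without mice 48 and 49, 319 were called in 7-day crypt and 257 between untreated compartments. Fits without 1 library called 404 (without mouse 49) to 807 probes in 7-day crypt, 593 to 952 in 90-day crypt, 2467 to 3970 in 90-day villus, 2 to 705 (without villus of mouse 48) between untreated compartments at 7 days and 1628 to 3634 at 90 days. Levels of members near 3 counts limit what can be read at low doses.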
